A study of Homo sapiens with 4 samples.

Results

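The insulin-like growth factor (IGF) system was followed through 10 genes: the binding proteins IGFBP1 to IGFBP7, the receptors IGF1R and IGF2R, and the IGF-like peptide IGFL1. They were taken by gene symbol from a gene-level RNA-Seq table of 62077 rows, and each symbol had its row on a standard chromosome. The set was chosen by gene family, and IGFL1 was added to it, selected on its FPKM in these same libraries, being among the genes with the largest loss after TET1 knockdown. Its knockdown values are therefore a description and not a test.

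The cells were FaDu, an established epithelial line from a squamous carcinoma of the hypopharynx, and the question was how the transcripts of cells with and without knockdown of TET1, a dioxygenase that oxidises methylated cytosine, differ between normoxia and hypoxia. The 4 groups were normoxia with a scrambled control (N-scr), normoxia with TET1 knockdown (N-si), hypoxia with a scrambled control (H-scr) and hypoxia with TET1 knockdown (H-si). Hypoxia was 19 h at 1% O2, 5% CO2 and 94% N2, and the normoxia cells were in air with 5% CO2. The knockdown was made with lentiviral short hairpin RNA expressed from pLKO.1-puro, and the number of separate knockdown cultures was not given in the sources used here. The paper lists 1 hairpin sequence against TET1, and other effects of that hairpin cannot be told apart from loss of TET1 here. Each group was 1 library, so every difference is one between single libraries with no replicate check and no p-value.

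IGFs are secreted peptides that act through IGF1R, a receptor tyrosine kinase upstream of PI3K and AKT. IGF2R has no kinase and removes IGF2 from the cell surface to the lysosome. The IGFBPs are secreted carriers that hold IGFs away from the receptor or deliver them to it, and several also act without IGF. IGFL1 belongs to a separate small family of secreted cysteine-rich peptides and binds IGFLR1, not IGF1R. Several IGFBP genes, IGFBP1 and IGFBP3 among them, are known for induction in hypoxia.

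Levels are FPKM, fragments per kilobase of exon scaled to the number of fragments mapped, a scale per length on which genes can be compared. Recovered depth was between 22550000 and 24500000 fragments per library. The targeted transcript, TET1, was low throughout, at about 28 reads for N-scr against 11 for N-si, and 76 for H-scr against 26 for H-si, which is 2.63-fold lower with knockdown in normoxia and 2.71-fold lower in hypoxia. Transcript remained with knockdown, and the level in H-si (0.122 FPKM) was close to that in N-scr (0.129 FPKM). The 6 epithelial markers (EPCAM, CDH1, KRT8, KRT18, KRT19, ESRP1) and the 6 squamous markers (KRT5, TP63, DSG3, DSC3, SFN, KRT17) were all present, as the label of the line has it. Their summed FPKM moved with the knockdown, from 3691.3 for N-scr to 1601.3 for N-si and from 4200.3 for H-scr to 2326.0 for H-si for the epithelial list, and from 4520.3 to 1522.8 and from 7158.4 to 3466.4 for the squamous list. Within the epithelial list the markers went different ways: KRT8 (-1.85 in normoxia, -2.07 in hypoxia, log2) and KRT18 (-1.87, -2.09) were lower with knockdown, EPCAM (0.41, 0.68), CDH1 (0.57, 0.45) and ESRP1 (0.23, 0.07) had positive values, and KRT19 had -0.77 and 0.22. Of the squamous list all 6 had negative values in normoxia, KRT5 the lowest at -2.35, and in hypoxia DSC3 (0.22) did not. Of the 6 fibroblast markers COL1A2 and LUM were at 0 in every library, and the list's sum, 5.30 for N-scr against 14.1 for N-si, and 28.7 for H-scr against 37.2 for H-si, was nearly all COL1A1. The endothelial list summed to 8.91, 22.2, 17.8 and 48.4 in the same order, most of it CDH5. The leukocyte list summed to 1.12, 0.994, 2.24 and 2.26. Nearly all of it was ITGAM (1.12, 0.994, 2.17 and 2.25), higher in hypoxia with and without knockdown, and CD3E was at 0 in all 4. The part of these marker differences in the results was not tested, and fewer cells of a type and less RNA per cell cannot be told apart in such bulk RNA. The 6 hypoxia genes (CA9, NDRG1, VEGFA, ADM, EGLN3, BNIP3) summed to 131.5 and 143.6 in normoxia (N-scr and N-si) and to 845.0 and 854.7 in hypoxia (H-scr and H-si). The hypoxia sums were mostly NDRG1 (497.0 and 578.6), and within them CA9 was at 7.82 FPKM in H-scr and 0.506 in H-si, and ADM at 35.9 and 11.6.

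The promoters of IGFL1 and IGFBP3 are shown because these were the members that were at least 2-fold lower with TET1 knockdown in both oxygen states. Both are the 250 bases before the RefSeq transcription start (taken from GRCh38.p14), 5′ to 3′ on the gene's own strand, and were placed in GRCh37 by exact match at chr19:46732749-46732998 on the plus strand for IGFL1 and at chr7:45960872-45961121 on the minus strand for IGFBP3. The IGFL1 window lies just before the gene, and the IGFBP3 window lies inside the span the table gives the gene (chr7:45951951-45961473), in an intron of its longest-reaching transcript and outside every exon. Capitals mark ACGTG or GCGTG, the core of the hypoxia response element, on either strand (CACGT and CACGC are the same letters read on the other strand).
IGFL1: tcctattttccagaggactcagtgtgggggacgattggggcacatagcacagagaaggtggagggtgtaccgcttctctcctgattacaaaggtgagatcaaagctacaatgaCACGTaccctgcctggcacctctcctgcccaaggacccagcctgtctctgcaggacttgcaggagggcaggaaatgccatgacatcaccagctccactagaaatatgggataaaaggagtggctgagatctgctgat
IGFBP3: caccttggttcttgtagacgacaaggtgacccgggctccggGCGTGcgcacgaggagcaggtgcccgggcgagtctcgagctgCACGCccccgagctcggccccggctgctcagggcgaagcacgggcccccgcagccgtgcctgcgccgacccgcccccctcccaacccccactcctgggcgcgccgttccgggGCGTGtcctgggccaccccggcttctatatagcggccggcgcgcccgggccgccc
The IGFL1 window held 1 such core, ACGTG, whose first letter on the printed strand stood 137 bases before the start. The IGFBP3 window held 3, all GCGTG. The pair also differed in CpG, the dinucleotide that is methylated, with 3 CpG and 52.8% GC in the IGFL1 window against 32 CpG and 76.0% GC in that of IGFBP3. Over all 35116 windows of this length in the RefSeq table, 43.2% held at least 1 core, and the medians were 11 CpG and 58.0% GC. Of the 10 members 8 matched the table, with 10 windows, and the windows of IGFBP4, IGFBP5 and IGFBP6 held no core in these letters. Counted by strand, the most matches were in the windows of the receptors, IGF2R with 6 and IGF1R with 5. Those of IGF2R are CACGTG, which counts on each strand, so they stand at 3 places, as many as in the IGFBP3 window. One window of IGFBP2 held 1. Both receptors had hypoxia responses under 2-fold, as given below. A match is a description of the sequence, and binding or methylation was not examined here.

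IGFL1 was the member with the widest range. Its level was 33.8 FPKM for N-scr (about 440 reads) against 2.05 for N-si (28 reads), and 179.4 for H-scr (2488 reads) against 2.24 for H-si (29 reads). The scrambled libraries were both high and the knockdown libraries were both low and nearly equal. The 95% counting intervals were 1.36 to 2.97 FPKM for N-si and 1.5 to 3.21 for H-si, and they overlap, while those of the scrambled libraries (30.7 to 37.1 and 172.4 to 186.6) stand apart from each other and from the knockdown libraries. These intervals cover counting error only, rest on approximate reads, and say nothing of the spread between cultures.

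Expressed as ratios, IGFL1 in scrambled cells was 5.31-fold higher under hypoxia, and in TET1-si cells it was 1.09-fold higher. On the scale used for all genes below, log2(FPKM + 0.1), these responses were 2.40 (95% counting interval without the pseudocount, 2.26 to 2.56) and 0.12 (-0.63 to 0.97). The level with knockdown was 16.5-fold lower than the scrambled control in normoxia and 80.1-fold lower in hypoxia, log2 changes of -3.98 (-4.67 to -3.51) and -6.26 (-6.88 to -5.78). Of all genes whose mean FPKM reached 1 (15057), IGFL1 ranked 120 from the lowest in normoxia and 75 in hypoxia, ranks that chose the gene and support nothing. The larger loss in hypoxia came with a higher scrambled level, not with a lower knockdown level. IGFL1 lies at chr19:46733009-46734500 in hg19 and has 4 exons in its canonical transcript.

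**Figure D1:**
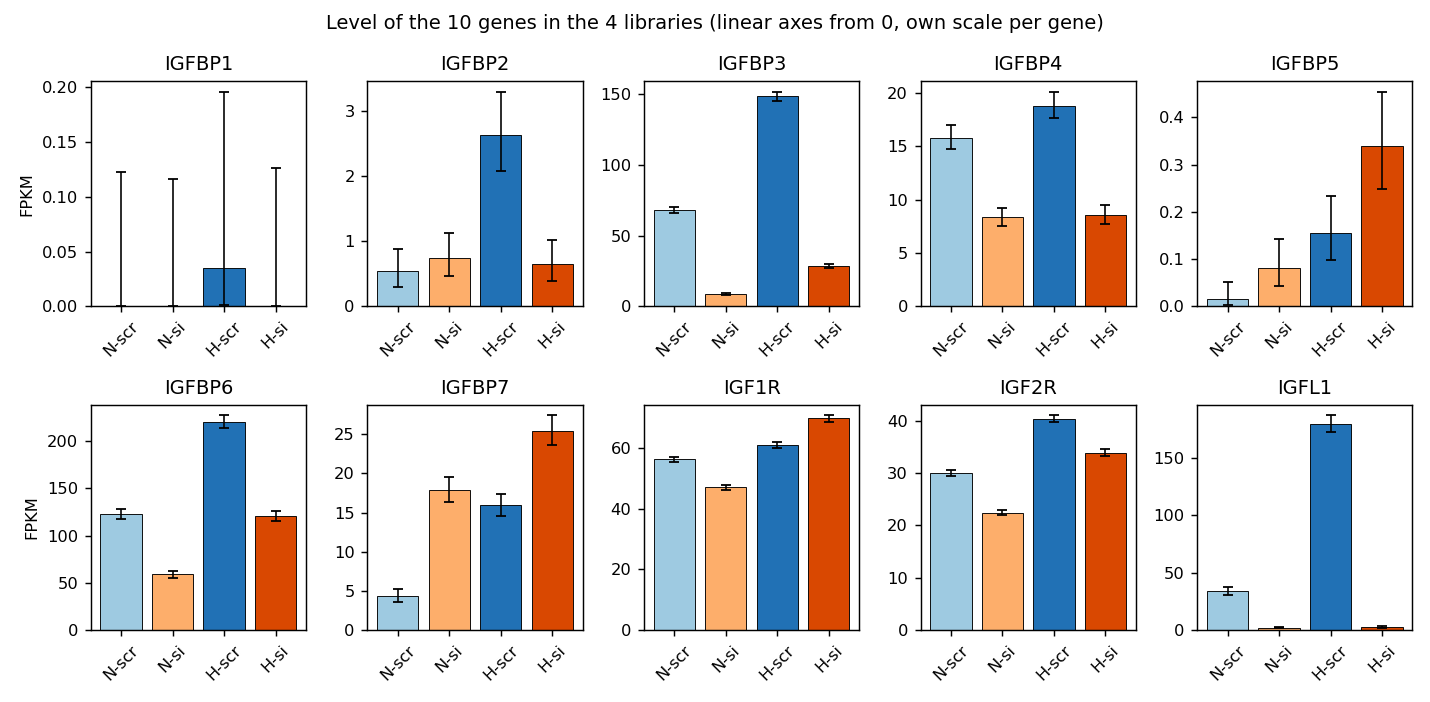
FPKM of each of the 10 genes (vertical axes, linear from 0, each gene on its own scale) in the 4 libraries (horizontal axes). Bars are single libraries and whiskers are 95% counting intervals from recovered reads, which do not cover differences between cultures. IGFL1 reaches 179.4 for H-scr and stays near 2 in both knockdown libraries, while IGFBP7 is lowest in N-scr and highest in H-si.

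The other peptides of the system were nearly absent, so the binding proteins were measured in cells with little IGF transcript of their own. IGF1, IGF2, INS (insulin), IGFL2, IGFL3 and IGFL4 were each under 0.5 FPKM in every library, and IGF2 was at 0.0303 for N-scr against 0 for N-si, and 0.130 for H-scr against 0.0206 for H-si. IGFLR1, the receptor of IGFL1, was read at 3.57 FPKM for N-scr against 8.81 for N-si, and 6.55 for H-scr against 3.59 for H-si. It was thus higher with knockdown in normoxia (log2 change 1.28) and lower with knockdown in hypoxia (-0.85), which differs from the order of IGFL1 itself.

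IGFBP3, the main serum carrier of IGFs and a binding protein with its own growth-restraining activity, was the most abundant binding protein after IGFBP6 in the scrambled cells. Its level was 68.1 FPKM for N-scr against 8.68 for N-si, and 148.4 for H-scr against 28.6 for H-si. Each hypoxia library was above its normoxia partner and each knockdown library was below its scrambled partner. Hypoxia went with a level 2.18-fold higher without knockdown and 3.30-fold higher with it (log2 1.12, interval 1.07 to 1.18, and 1.71, 1.58 to 1.87). Knockdown went with a 7.85-fold lower level in normoxia and a 5.19-fold lower level in hypoxia (log2 -2.96, -3.11 to -2.84, and -2.37, -2.45 to -2.30). Unlike IGFL1, IGFBP3 was higher in hypoxia with and without the knockdown, by 0.59 more on the log2 scale with it, a difference between single libraries that was not tested.

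IGFBP6, the binding protein that prefers IGF2, was the most abundant member in every library. It was measured at 123.2 FPKM for N-scr against 58.9 for N-si, and 220.3 for H-scr against 121.0 for H-si. The level in H-si was close to that in N-scr, and their counting intervals (115.8 to 126.4 and 118.0 to 128.6) overlap. Its hypoxia responses were 0.84 without knockdown and 1.04 with it, and its knockdown responses were -1.06 in normoxia and -0.86 in hypoxia. All 4 lie close to a 2-fold change, and the intervals of those past it, 0.93 to 1.15 and -1.17 to -0.96, include 1 and -1.

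IGFBP4, an inhibitory binding protein that is cut by the protease PAPPA, followed the knockdown and hardly followed oxygen. Its level was 15.8 FPKM for N-scr and 18.8 for H-scr against 8.35 for N-si and 8.58 for H-si. The knockdown libraries were both below the scrambled ones, 1.89-fold in normoxia and 2.19-fold in hypoxia (log2 -0.91, -1.10 to -0.74, and -1.12, -1.31 to -0.96). Its hypoxia response was 0.25 without knockdown and 0.04 with it, and the latter interval, -0.17 to 0.24, includes 0.

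IGFBP7, a secreted matrix-associated protein with low affinity for IGFs, went the other way. It was at 4.36 FPKM for N-scr against 17.9 for N-si, and 15.9 for H-scr against 25.4 for H-si, so that N-scr was low and the other 3 libraries were high. The knockdown level was 4.10-fold higher in normoxia and 1.60-fold higher in hypoxia (log2 2.01, 1.74 to 2.33, and 0.68, 0.51 to 0.85). Under hypoxia it was 3.64-fold higher without knockdown and 1.42-fold higher with it. The gene overlaps POLR2B, a subunit of RNA polymerase II on the opposite strand, whose level was between 74.5 and 93.4 FPKM. Whether counting used strand was not given in the sources used here, so reads of the overlap cannot be assigned to one gene with certainty.

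IGFBP2, a binding protein often raised in tumours, was low but differed in 1 library. It was at 0.535 FPKM for N-scr (15 reads) against 0.748 for N-si (22 reads), and 2.63 for H-scr (77 reads) against 0.648 for H-si (18 reads). Only H-scr stood apart: its counting interval, 2.08 to 3.29 FPKM, lies above those of the other 3, which overlap. Without knockdown the hypoxia library was 4.92-fold higher (log2 2.11, 1.46 to 3.17), and with knockdown the log2 response was -0.18 (-1.16 to 0.79). In hypoxia the knockdown level was 4.06-fold lower (log2 -1.87, -2.81 to -1.22), and in normoxia the knockdown response was 0.42 (-0.55 to 1.52).

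The remaining binding proteins had a mean FPKM under 1 and entered no count. IGFBP1, a liver-secreted carrier whose gene neighbours IGFBP3, had 1 read in H-scr and 0 in the other 3 libraries, where 3 reads would have been at most 0.102 FPKM. IGFBP5, a binding protein of bone and muscle, had 2 reads for N-scr against 12 for N-si, and 23 for H-scr against 46 for H-si, or 0.0145, 0.0813, 0.156 and 0.340 FPKM. Its ratio of H-scr to N-scr was 10.7 with a log2 counting interval from 1.42 to 6.56, and the ratio of H-si to H-scr was 2.18 (0.37 to 1.91), all at levels under 0.5 FPKM.

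The receptors were abundant and had the narrowest ranges of the 8 members with a mean FPKM of at least 1. IGF1R was at 56.4 FPKM for N-scr against 47.1 for N-si, and 61.1 for H-scr against 69.9 for H-si, and IGF2R at 30.0, 22.4, 40.4 and 33.9 in the same order. For both genes all 4 responses were under 2-fold, from -0.26 to 0.57 on the log2 scale for IGF1R and from -0.42 to 0.59 for IGF2R. IGF1R was 1.2-fold lower with knockdown in normoxia and 1.14-fold higher in hypoxia, whereas IGF2R was lower in both, 1.34-fold and 1.19-fold. Under median-of-ratios scaling the IGF1R log2 values were -0.43 in normoxia and 0.07 in hypoxia, in place of -0.26 and 0.19. With 13845 to 18946 reads for IGF1R these differences are larger than counting error, but the spread between cultures is not known. CHP1P2, a processed pseudogene inside IGF2R on the same strand, was between 0.752 and 3.12 FPKM.

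The order of the members changed with the knockdown. IGFBP6 ranked 1 in all 4 libraries. IGFL1 ranked 4 among the 10 in N-scr, 2 in H-scr, above IGFBP3, and 7 with knockdown in either oxygen state. IGF1R ranked 3 in N-scr, 4 in H-scr and 2 in each knockdown library. Neighbours in the order with overlapping counting intervals were IGFBP3 and IGFBP4 for N-si, IGFBP3 and IGFBP7 as well as IGFBP2 and IGFBP5 for H-si, and IGFBP5 and IGFBP1 in the other 3 libraries.

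Summed over the 7 binding proteins, the level was 212.1 FPKM for N-scr against 94.7 for N-si, and 406.3 for H-scr against 184.6 for H-si. The sum was higher in hypoxia and lower with knockdown in both states. Set against IGF1R in the same library, it was 3.76 times the receptor for N-scr against 2.01 for N-si, and 6.65 for H-scr against 2.64 for H-si. IGFBP6 supplied between 54.2% and 65.5% of the sum. IGFBP3 made up 32.1% in N-scr and 36.5% in H-scr but 9.17% of it in N-si and 15.5% in H-si. IGFBP7 went from 2.06% and 3.91% in the scrambled libraries to 18.9% and 13.8% in the knockdown libraries (normoxia and hypoxia).

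**Figure D2:**
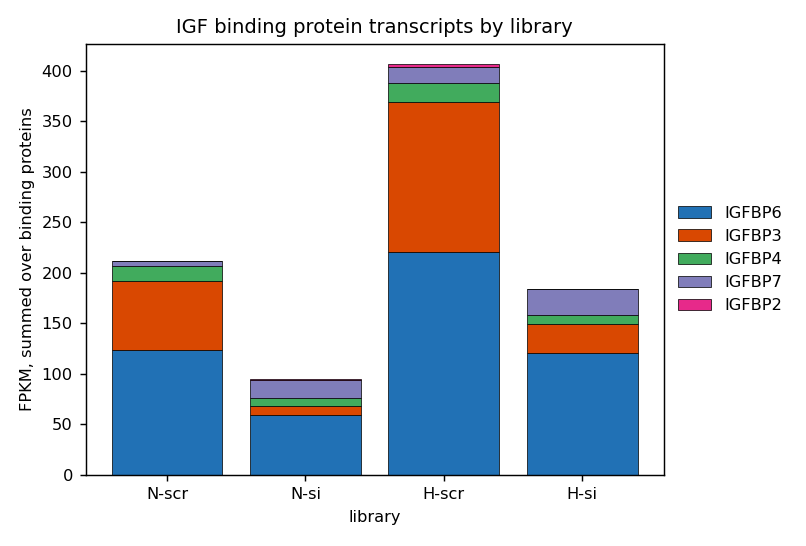
Summed FPKM of the binding proteins (vertical axis, linear from 0) in each library (horizontal axis), stacked by gene; IGFBP1 and IGFBP5 are too low to draw and are left out. The stack is tallest in H-scr and shortest in N-si, and the IGFBP3 segment shrinks while the IGFBP7 segment grows in the knockdown libraries.

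Of the 10 members 8 had a mean FPKM of at least 1 and were counted as changed when a response reached 2-fold. All the counts and medians that follow are descriptions and support nothing, since IGFL1 was selected on a loss that its high H-scr level enters, and IGFBP2 reached the mean of 1 through H-scr alone, the other 3 libraries lying between 0.535 and 0.748 FPKM. With a minimum mean of 5, which leaves IGFBP2 out, the 4 higher in hypoxia in scrambled cells become 3, and the 4 lower with knockdown in hypoxia become 3. Over all genes the same change of filter takes these counts from 1937 to 905 and from 1258 to 789. In hypoxia 4 of the 8 were higher in scrambled cells (IGFBP2, IGFBP3, IGFBP7, IGFL1), where 12.9% of all 15057 genes were, and 0 were lower (4.53% of all genes). In TET1-si cells 2 were higher in hypoxia (IGFBP3, IGFBP6), against 12.5% of all genes, and 0 were lower (8.66%). All 8 members had a positive hypoxia response in scrambled cells, with a median of 0.98 against 0.05 over all genes, and 7 of 8 in TET1-si cells, with a median of 0.54 against 0.03.

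The knockdown comparisons are those on which IGFL1 was selected. In hypoxia 0 members were higher (12.0% of all genes) and 4 were lower, IGFBP2, IGFBP3, IGFBP4 and IGFL1 (8.35%). In normoxia 1 was higher, IGFBP7 (12.1%), and 3 were lower, IGFBP3, IGFBP6 and IGFL1 (5.56%). The medians were -0.99 in hypoxia, with all genes at 0.10, and -0.67 in normoxia, with all genes at 0.15. Of all genes changed in normoxia 68.6% were higher, and 56.0% after median-of-ratios scaling. The upward shift of all genes in normoxia was -0.00 after median-of-ratios scaling, under which IGFBP4 was also past 2-fold lower. The direction of every counted member in every comparison was the same under each of 3 scalings. IGFBP3 reached 2-fold higher under hypoxia with and without knockdown (6.73% of all genes did), and IGFBP3 and IGFL1 were at least 2-fold lower with knockdown in both oxygen states (3.06% of all genes). The comparisons share libraries: H-scr enters the hypoxia response of scrambled cells and the knockdown response in hypoxia, so a high value there enters both.

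**Figure D3:**
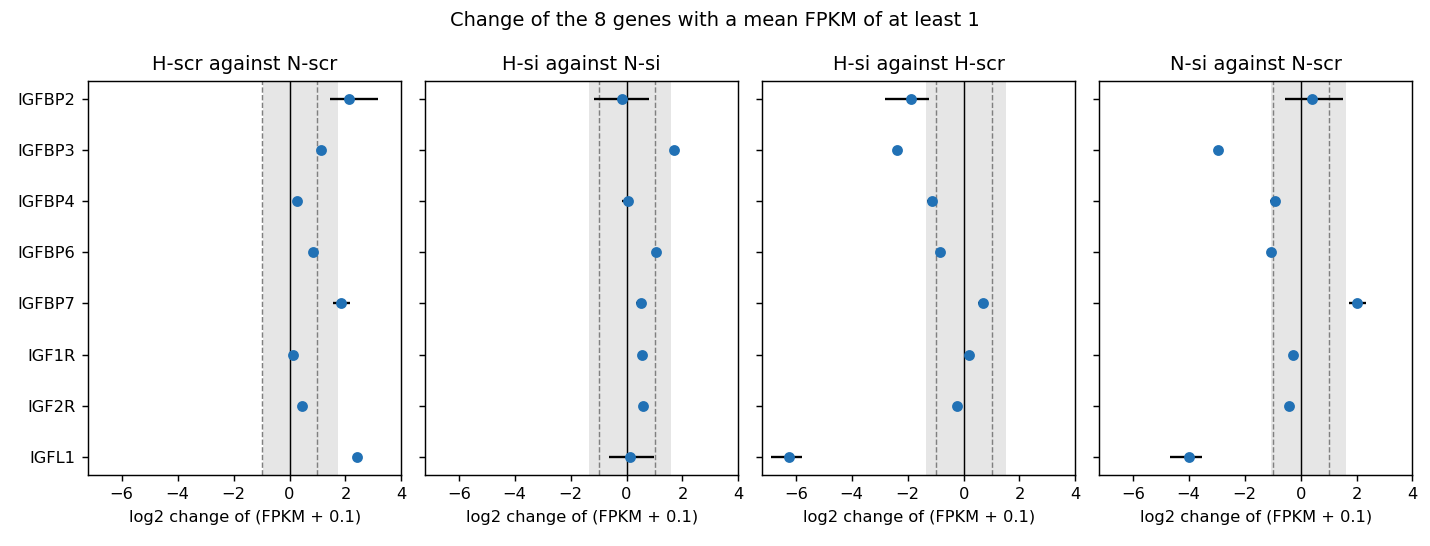
Change in log2(FPKM + 0.1) (horizontal axes) of the 8 members with a mean FPKM of at least 1 (vertical axis) in 4 comparisons of single libraries. Points are changes, lines are 95% counting intervals without the pseudocount, dashed lines mark 2-fold and grey bands hold the middle 90% of all 15057 genes. Of the 2 knockdown panels, IGFL1 and IGFBP3 lie below the band in both, IGFBP2 lies below it in hypoxia, and in normoxia IGFBP6 lies at its lower edge and IGFBP7 above it.

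The genes next to the members differed in how they followed the knockdown. For each changed member, the 5 nearest protein-coding genes whose mean FPKM reached 1 were read on either side. The 10 neighbours of IGFBP3 on chromosome 7, over 5.99 Mb, had a median knockdown response of -1.19 in hypoxia and -1.0 in normoxia, and 7 and 5 of them were at least 2-fold lower, against 8.35% and 5.56% of all genes. All 10 were below 0 in normoxia, from -1.74 to -0.34. IGFBP3 itself, at -2.37 and -2.96, was below each of its neighbours in both states. The 10 neighbours of IGFL1 on chromosome 19, over 0.994 Mb, had medians of 0.24 and 0.39, and 0 of them were 2-fold lower in either state, so that IGFL1 was low among genes that were not. Among the neighbours of IGFBP6, 3 were lower in each state, and they include KRT8 and KRT18, keratins of simple epithelia. Among those of IGFBP4, 3 were lower in hypoxia and 2 in normoxia, the lowest being the keratin KRT13. IGFBP2 and IGFBP7 had 0 neighbours that were 2-fold lower. Of the neighbours of IGFBP7, which was itself higher with knockdown, 2 were at least 2-fold higher in hypoxia, RUFY3 (1.07) and PAICS (8.90, listed at 0 in H-scr), and 0 in normoxia. IGFBP2 had 1 in hypoxia, CXCR2 (1.61), and 0 in normoxia. IGFBP4 had 1 higher in each state, GJD3 (1.09 in hypoxia, 1.31 in normoxia), and IGFL1 had 1 in normoxia, CCDC61 (1.31). Of all genes 12.0% were higher in hypoxia and 12.1% in normoxia. All the neighbours named in this paragraph were picked out after seeing their values. The part of a chromosomal region in these member values was not tested.

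**Figure D4:**
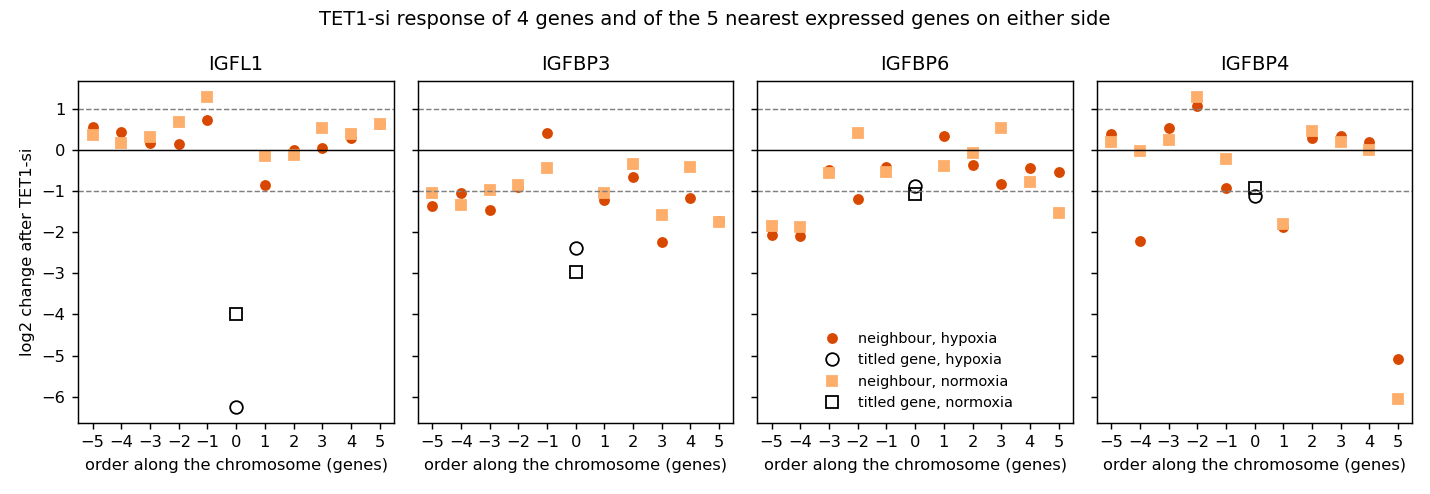
Log2 change with TET1-si (vertical axis) of 4 members (open symbols at 0) and of the 5 nearest expressed protein-coding genes on either side, in order along the chromosome (horizontal axes); circles are hypoxia, squares normoxia, and dashed lines mark 2-fold. The neighbours of IGFL1 lie between -0.84 and 1.31, and most neighbours of IGFBP3 lie near or below -1.

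The wider pathway was read from a list of 57 genes, of which 43 had a mean FPKM of at least 1. In hypoxia 4 were at least 2-fold higher and 1 lower in scrambled cells, and 4 were higher and 2 lower in TET1-si cells. With knockdown 3 were higher and 4 lower in hypoxia, and 4 were higher and 3 lower in normoxia. These shares lie near the percentages of all genes given above, and the list's medians were between -0.07 and 0.20. Most adaptors, PI3K and AKT kinases, and mTOR components were under 2-fold, but so were most of all 15057 genes. Depending on the comparison, 12.0% to 12.9% of those 15057 were at least 2-fold higher and 4.53% to 8.66% lower. Staying under 2-fold therefore does not set the pathway list apart.

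Of the list, HTRA1, STC1 and FOXO4, 3 of the 43 counted, were at least 2-fold higher under hypoxia with and without knockdown. The same held for 6.73% of all genes. STC1 and FOXO4 reached the mean FPKM of 1 only through their hypoxia libraries, so the filter favoured their being counted here. HTRA1, a secreted serine protease with an IGFBP-like domain, was at 1.77 FPKM for N-scr against 0.366 for N-si, and 9.45 for H-scr against 1.32 for H-si, high in H-scr and low in N-si. STC1, a stanniocalcin that inhibits PAPPA, was at 0.688, 0.920, 5.01 and 4.16 in the same order and separated by oxygen. FOXO4, a transcription factor that AKT keeps out of the nucleus, was at 0.491, 1.33, 2.82 and 6.42, higher with each of hypoxia and knockdown.

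HTRA1, GRB10 and AKT2, 3 of the 43 counted, were at least 2-fold lower with knockdown in both oxygen states (3.06% of all genes). FOXO4 alone was higher in both (6.51% of all genes). HTRA1 changed by -2.01 in normoxia and -2.75 in hypoxia. It reached the mean FPKM of 1 through its scrambled libraries (1.77 and 9.45 FPKM, against 0.366 and 1.32 with knockdown). The filter thus favoured its being counted as lower. GRB10, an adaptor that dampens insulin and IGF1 receptor signalling, was at 13.6 FPKM for N-scr against 4.0 for N-si, and 19.5 for H-scr against 5.87 for H-si (log2 -1.74 and -1.71), and it is also 1 of the 10 neighbours of IGFBP3 on chromosome 7. AKT2, a kinase downstream of the receptor, was at 146.1, 67.6, 170.5 and 85.1 FPKM, changes of -1.11 in normoxia and -1.0 in hypoxia that stand at the 2-fold limit.

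**Figure D5:**
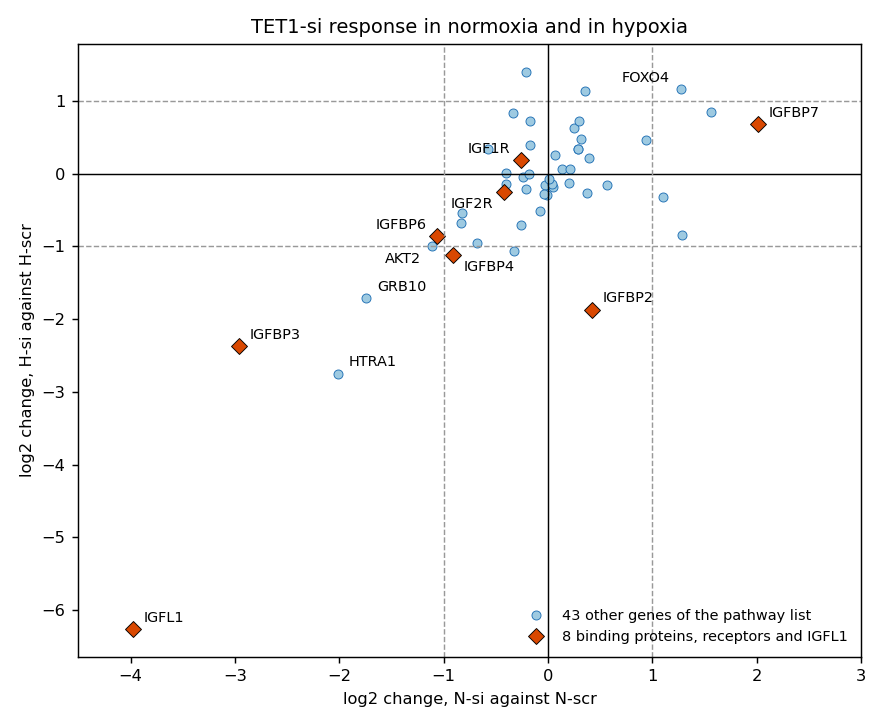
Log2 change with TET1-si in normoxia (horizontal axis) against hypoxia (vertical axis) for the 8 members (diamonds) and 43 other pathway genes (circles); dashed lines mark 2-fold. IGFL1 at -3.98 and -6.26, IGFBP3, HTRA1 and GRB10 lie at the lower left, IGFBP2 is low in hypoxia only, and most other genes lie within 2-fold of 0.

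The genes most like IGFL1 over the 4 libraries were sought among 9464 protein-coding genes whose mean FPKM reached 5, by the Euclidean distance between log2 profiles centred on their mean. Those at the smallest distance were FGFBP1 (1.14), which encodes a secreted carrier of fibroblast growth factors, CXCL1 (1.42), a neutrophil chemokine, and KRT14 (1.56), a keratin of basal cells. FGFBP1 was at 63.5 FPKM for N-scr against 5.26 for N-si, and 258.3 for H-scr against 9.69 for H-si, high in H-scr like IGFL1. KRT14 was at 42.1, 0.487, 99.9 and 1.41. For IGFBP3, the closest were GPNMB (0.43), a transmembrane glycoprotein, PADI3 (0.43), a peptidylarginine deiminase of keratinocytes, and SEMA4B (0.49), a semaphorin. GPNMB, also on chromosome 7, was at 158.5 FPKM for N-scr against 19.3 for N-si, and 378.3 for H-scr against 49.1 for H-si. A likeness over 4 libraries is a description only.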

How the data were processed

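RNA-Seq of 4 FaDu libraries was used, 1 per group. The authors prepared TruSeq mRNA libraries, sequenced reads of 100 bp (single end per the labels, paired end per the methods) and ran TopHat and Cufflinks on hg19 with Ensembl annotations; versions, filters and strandedness are not given in the sources used here. The deposited values are FPKM per gene, 1 column per library. Columns were assigned by condition name, and start positions had 1 added.

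Rows on chr chromosomes with an identifier on 1 row numbered 56423, of which 15057 had a mean FPKM of at least 1. Changes are differences of log2(FPKM + 0.1), counted from 2-fold. With 1 library per group no test was run. Depth was recovered as the value at which low FPKM among 5208 single-exon genes became whole reads. Of the 732 to 849 low values per library, 94.8% to 96.4% came within 0.05 of a whole read. Reads per gene are FPKM times depth times the canonical GENCODE v44lift37 transcript length less 213 bp, and are approximate. Level intervals are exact Poisson and ratio intervals exact (Clopper-Pearson), at 95%, and cover counting error only. Depth recovery and the 2-fold call were tested on simulated data, and the reads per gene and the intervals were not.

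The members, the pathway and marker lists and the rules for named genes (all members, TET1, pathway genes changed in both states, the 3 genes most alike, neighbours) were chosen with earlier results of these data known. PECAM1 was not used here, as it has no row on a chr chromosome, and PIK3R2 was taken from the row whose identifier GENCODE gives that name. Alternatives were other pseudocounts, scalings and filters. Python 3.11.15, numpy 2.4.6, pandas 2.3.3, scipy 1.17.1 and matplotlib 3.10.9 were used.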

Additional observations from a re-analysis of the deposited data

Results flagged for a closer look

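IGFBP2 had hypoxia responses of opposite sign with and without TET1 knockdown. The log2 change was 2.11 without knockdown and -0.18 with it, a difference of -2.29. Its knockdown response was likewise -1.87 in hypoxia and 0.42 in normoxia, and the difference is again -2.29 because the same 4 libraries give both. The counting intervals of -0.18 and of 0.42 include 0, the gene had 15 to 77 reads per library, and the difference was not tested.

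IGF1R was slightly lower with knockdown in normoxia (-0.26) and slightly higher in hypoxia (0.19), a difference of 0.45 between single libraries that was not tested. Under median-of-ratios scaling the values were -0.43 and 0.07.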

How the results depend on the processing

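No paired analysis was possible because each group has 1 library and no result comes from a test; leaving out a library was not possible for the same reason. The 7 alternatives were pseudocounts of 1 and 0.01 FPKM, median-of-ratios, upper-quartile and TPM scaling, a minimum mean FPKM of 5, and no filter. None of the 8 members with a mean FPKM of at least 1 changed direction in any comparison under them. The 8 counts of changed members moved by at most 1. IGFBP4 became 2-fold lower with knockdown in normoxia under median-of-ratios and upper-quartile scaling, IGFBP2 left the counts at a minimum of 5, and IGFBP5 entered those for hypoxia with no filter. The IGFBP2 difference between hypoxia responses was -1.33 with a pseudocount of 1 and -2.48 with 0.01. Counts over all genes depended more on the settings. With no filter the genes at least 2-fold higher numbered 4517 (scrambled) and 4803 (TET1-si) in hypoxia, and 4226 (hypoxia) and 3699 (normoxia) with knockdown, and those lower 1654, 2333, 3083 and 2299; at a minimum of 5 they were 905, 823, 881 and 892 higher and 466, 1013, 789 and 435 lower. With a pseudocount of 1, 1237 were higher in hypoxia in scrambled cells and 1164 with knockdown in normoxia. The share of changed genes that were higher with knockdown in normoxia was 68.6% as reported and 56.0% under median-of-ratios scaling, with knockdown in hypoxia 59.0% and 49.2% (1478 higher and 1524 lower), and in hypoxia in TET1-si cells it was 59.1% as reported, 69.1% under TPM and 44.8% at a minimum of 5. Pathway counts at a minimum of 5 or a pseudocount of 1 were between 0 and 2 where they moved. Depth limits IGFBP1 and IGFBP5, with at most 46 reads, and the spread between cultures is unknown for every value.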
